A study of Populus deltoides with 12 samples.

Results

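The 4 genes described here were annotated by the study as flavonoid 3-O-glycosyltransferase genes (UFGT) of *Populus deltoides*: *PdeUFGT3* (Podel.06G057500.v2.1), *PdeUFGT4* (Podel.02G260900.v2.1), *PdeUFGT5* (Podel.07G150600.v2.1), and *PdeUFGT9* (Podel.07G150700.v2.1). They were chosen by name from the 11 *UFGT* genes in the study's list of 37 structural genes of flavonoid and anthocyanin biosynthesis, out of 46170 genes in the deposited tables. Earlier results of these data were known when they were chosen, so their direction of change is not independent of the choice. Leaf RNA was sequenced from purple leaves (F_P) and green leaves (F_G) of ‘Zhongshanyuan’ (ZSY), purple leaves of ‘Quanhong’ (P, QHP), and green leaves of ‘L2025’ (G), each group having 3 biological replicates (4 groups). The plants were 2-year-old field-grown seedlings labelled as wild type, without any treatment. The leaves were fully expanded in all groups, but the leaf position was given for QHP and L2025 and not for ZSY. F_P vs. F_G compares leaf colors within a cultivar, whereas in P vs. G leaf color and cultivar cannot be told apart.

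UFGT enzymes transfer a sugar from a UDP-sugar to a flavonoid. In anthocyanin biosynthesis, this step turns the unstable anthocyanidin made by anthocyanidin synthase (ANS) into an anthocyanin, which is stored in the vacuole and colors the tissue. Plant glycosyltransferases form a large family in which closely related members can prefer anthocyanidins, flavonols, or other acceptors, so the name of a copy does not give its substrate.

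The copies differ in structure and position, and 2 of them are neighbors. In the deposited annotation, whose build is not named, *PdeUFGT3* is on the minus strand of chromosome 6 (4269830 to 4271503) and *PdeUFGT4* on the plus strand of chromosome 2 (24383816 to 24386084). Both consist of 1 exon, and their coding lengths are 1419 and 1407 bases. *PdeUFGT5* is on the minus strand of chromosome 7 (15633479 to 15635874), with 2 exons separated by an intron of 616 bases and a coding length of 1374 bases. *PdeUFGT9* is on the plus strand of the same chromosome (15636991 to 15640078), with 3 exons, introns of 910 and 580 bases, and a coding length of 1392 bases. *PdeUFGT5* and *PdeUFGT9* are therefore transcribed away from each other, with 1116 bases between their starts. The next annotated gene begins on the same strand directly after the end of *PdeUFGT9* (gap of 0 bases), so that fragments at this boundary could be counted for either gene. Other listed genes lie nearby: *PdeFLS3* lies 15.9 kb beyond the *PdeUFGT5* end of the pair, and *PdeFLS4* 49.9 kb and *PdeUFGT11* 119.2 kb beyond the *PdeUFGT9* end. FLS (flavonol synthase) draws on the same dihydroflavonols that lead to anthocyanidins.

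**Figure D1:**
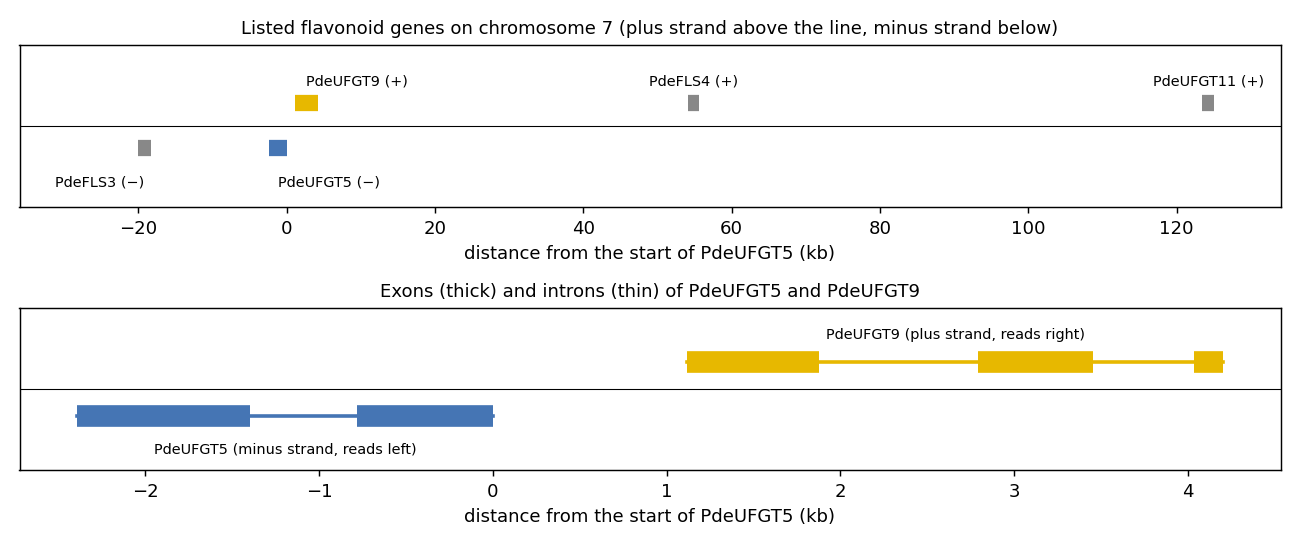
Listed flavonoid genes on chromosome 7, drawn to scale as distance in kb from the start of PdeUFGT5; the upper panel holds 5 genes by strand and the lower panel the exons of PdeUFGT5 and PdeUFGT9. The starts of this pair face each other across 1116 bases, and PdeUFGT9 has 1 more exon than PdeUFGT5.

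The only sequences of these genes in the sources used here are the primers with which the study assayed 3 of them by qRT-PCR, shown because they name the copies that the study assayed a second time. The assay's values were not used, and whether a pair amplifies only its own copy was not tested. None was listed for *PdeUFGT3*.
PdeUFGT4 forward: cgcacaaggccacataaatc
PdeUFGT4 reverse: gaatgacaaaccgtcaggaaac
PdeUFGT5 forward: ccaagctggtagaggatgttt
PdeUFGT5 reverse: tttcatctcttcgcccttctc
PdeUFGT9 forward: cctgtgttgatcgagggattac
PdeUFGT9 reverse: cccttctgggatctttcctttc
The primers are 20 to 22 bases long, and the neighbors *PdeUFGT5* and *PdeUFGT9* were assigned different pairs.

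Expression was deposited as FPKM, the fragments of a gene scaled to the length of its transcript and to the size of the library. FPKM and exon lengths gave whole fragments (within 0.02) for 100% of the values checked, and 14543579 to 16628923 fragments per library were recovered (median 16000272). The read-sharing between similar copies could not be checked without their sequences, so the split of fragments among copies is uncertain. The summed FPKM of 20 photosynthesis antenna genes was 9252 to 10774 (F_G) against 7288 to 7508 (F_P) in ZSY, and 20609 to 23519 (G) against 6057 to 6468 (P) in the other cultivars, and none of them was at 0 throughout a group. The sum over 15 DNA replication genes, which mark dividing cells, was 119 to 141 (F_G) against 52.2 to 57.5 (F_P), and 172 to 216 (G) against 84.5 to 90.7 (P), with 1 of the 15 at 0 throughout F_P. Both lists, which the study chose on these libraries, were thus lower in the purple than in the green leaves of each comparison, in the opposite direction to the 4 *UFGT* genes, and their part in the results was not tested. In bulk leaf RNA, more cells of a type and more RNA per cell cannot be told apart.

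*PdeUFGT5* was the most highly expressed copy in 9 of the 12 libraries. Its FPKM in ZSY was 69.2, 80.9, and 76.8 in green (F_G) and 183, 193, and 187 in purple leaves (F_P). It was 47.0, 48.7, and 37.9 in L2025 (G) and 130, 138, and 125 in QHP (P). The 4 groups did not overlap, in the order F_P, P, F_G, G, and the group means were 187 ± 5.09 (SD, n = 3), 131 ± 6.94, 75.6 ± 5.97, and 44.5 ± 5.84. At least 999 fragments stood behind each value, so that the precision was not limited by low counts.

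*PdeUFGT9*, its neighbor on the opposite strand, was the most highly expressed copy in the other 3 libraries, F_G replicates 1 and 3 and P replicate 3. Its FPKM in ZSY was 81.0, 79.6, and 92.1 in green (F_G) and 165, 158, and 158 in purple leaves (F_P). It was 41.8, 39.1, and 34.9 in L2025 (G) and 117, 129, and 127 in QHP (P). The order of the groups was the same as for *PdeUFGT5* and again without overlap, with means of 160 ± 3.96 (SD, n = 3) in F_P, 124 ± 6.22 in P, 84.2 ± 6.87 in F_G, and 38.6 ± 3.49 in G. Between 826 and 4209 fragments were recovered per library.

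*PdeUFGT4*, the copy with a single exon on chromosome 2, ranked below this pair in every library. Its FPKM in ZSY was 24.8, 25.7, and 29.2 in green (F_G) and 64.5, 64.0, and 68.4 in purple leaves (F_P). It was 11.4, 10.6, and 7.11 in L2025 (G) and 28.1, 31.4, and 27.8 in QHP (P). F_P was the highest group and G the lowest, whereas P (mean 29.1 ± 2.00, SD, n = 3) and F_G (26.6 ± 2.32) overlapped. The means were 65.6 ± 2.40 in F_P and 9.70 ± 2.27 in G.

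*PdeUFGT3* was at a far lower level than the other copies, ranked last in every library, and was the only copy whose mean was higher in the green leaves of ZSY than in the purple leaves of QHP. Its FPKM in ZSY was 0.507, 1.48, and 1.87 in green leaves (F_G; 13, 41, and 48 fragments) and 9.38, 12.1, and 11.2 in purple leaves (F_P; 251, 326, and 312 fragments). It was 0.0793, 0.169, and 0 in L2025 (G; 2, 4, and 0 fragments) and 0.409, 0.332, and 0.758 in QHP (P; 12, 10, and 22 fragments). F_P stood apart from all other libraries, F_G and P overlapped, and the absence of fragments in G replicate 3 allows a level of up to 0.121 FPKM by counting error alone. The means were 10.9 ± 1.40 (SD, n = 3) in F_P, 1.28 ± 0.701 in F_G, 0.500 ± 0.227 in P, and 0.0829 ± 0.0848 in G.

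**Figure D2:**
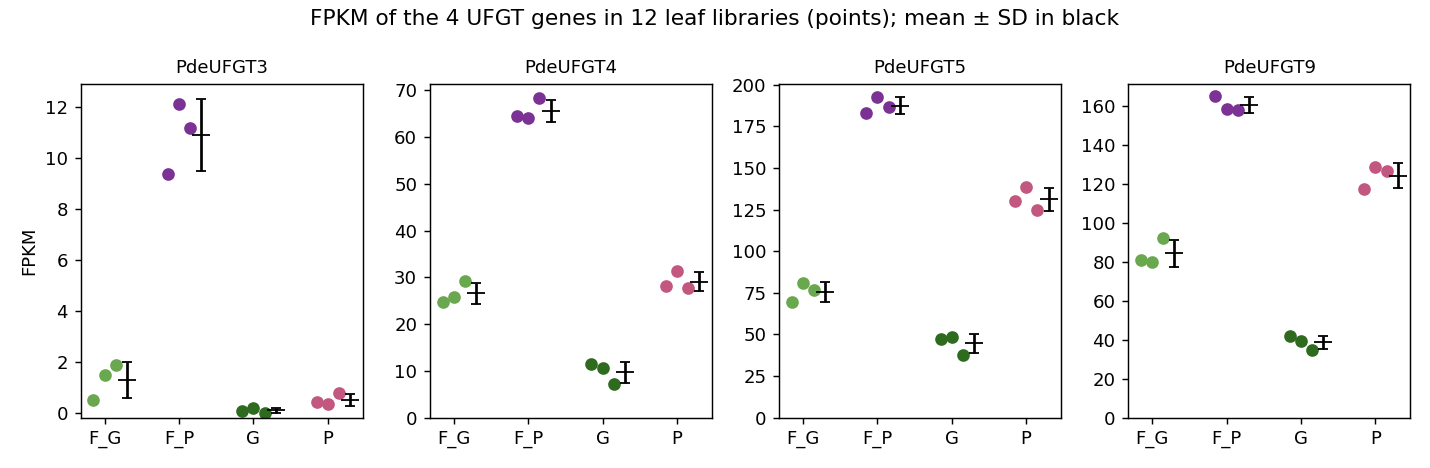
FPKM (linear axis, a separate range for each gene) of the 4 UFGT genes in the 12 libraries; points are replicates and the black mark is the mean ± SD of 3. F_P is the highest and G the lowest group for each gene, and PdeUFGT3 is near 0 outside F_P, with at most 1.87 FPKM.

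Within ZSY, purple leaves held more transcript of all 4 genes than green leaves, and 3 of them were called. The means of *PdeUFGT3*, *PdeUFGT4*, *PdeUFGT5*, and *PdeUFGT9* were 8.49, 2.47, 2.48, and 1.90 times as high in F_P as in F_G. Differences were tested with limma on log2(FPKM + 1), over all genes that reached 1 FPKM in 3 or more of the 6 libraries. A gene was called where the p adjusted by Benjamini-Hochberg did not exceed 0.05 and the log2 difference was 1 or more in either direction. This scale understates the changes of low genes. *PdeUFGT3* rose by 2.43 on this scale (SE 0.24, adjusted p = 9.9e-05, and 3.7e-04 without the filter, which it passed through 3 libraries of F_P and 2 of F_G), *PdeUFGT4* by 1.28 (SE 0.07, adjusted p = 5.9e-06), and *PdeUFGT5* by 1.30 (SE 0.07, adjusted p = 3.1e-06). *PdeUFGT9* had a log2 difference of 0.92 (SE 0.06, adjusted p = 1.6e-05), which was beyond the spread between replicates but below the minimum fold change, so it was not called. Of all 25713 genes tested, 5.68% were called higher in F_P and 12.5% lower, and the median log2 difference was 0.04. The study placed these genes in its list from its own tests of these libraries, so the count of 3 of 4 is not independent evidence of their direction.

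The purple leaves of QHP likewise held more transcript of all 4 genes than the green leaves of L2025, and the 3 genes that could be tested were all called. The means of *PdeUFGT3*, *PdeUFGT4*, *PdeUFGT5*, and *PdeUFGT9* were 6.03, 3.00, 2.94, and 3.21 times as high in P as in G. *PdeUFGT4* rose by 1.51 (SE 0.16, adjusted p = 1.1e-04), *PdeUFGT5* by 1.54 (SE 0.10, adjusted p = 9.4e-06), and *PdeUFGT9* by 1.66 (SE 0.08, adjusted p = 2.2e-06; limma). *PdeUFGT3* did not reach 1 FPKM in any of the 6 libraries and was left out of the test. Its 44 fragments in P and 6 in G correspond to a ratio of 6.11, with an exact 95% interval of 2.59 to 17.5 that covers counting error only. Without the filter, its log2 difference was 0.46 (adjusted p = 0.021, below the minimum fold change), and limma's voom method on the recovered fragments, likewise without the filter and chosen after the data were seen, gave 2.75 (SE 0.78, adjusted p = 0.012), a call. Of all 26577 genes tested, 9.85% were called higher in P and 16.2% lower, with a median log2 difference of −0.02. The split was 2618 higher and 4313 lower, and 3429 and 3668 when the libraries were scaled to equal fragment totals.

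**Figure D3:**
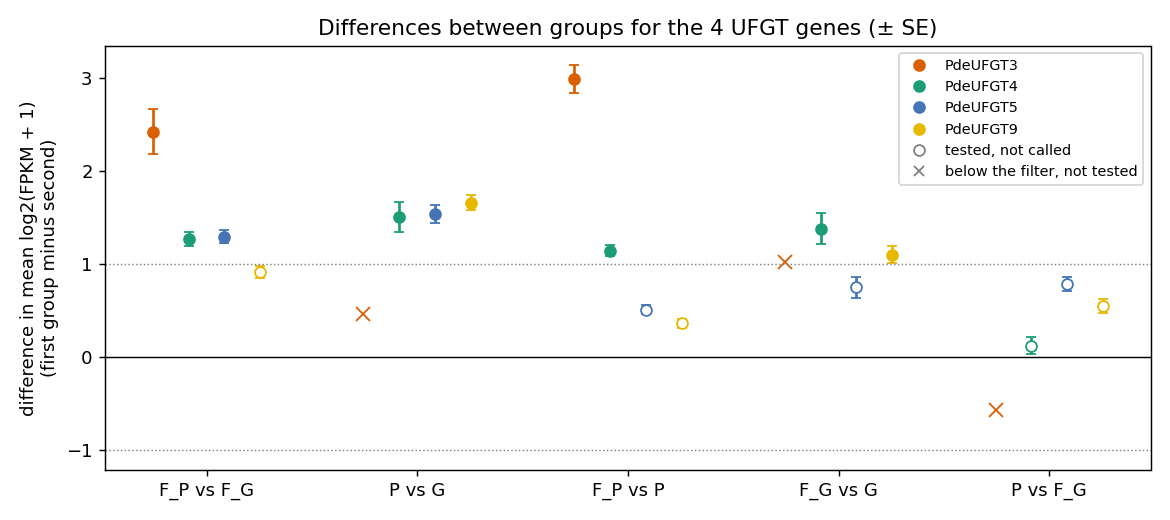
Differences in mean log2(FPKM + 1) between 2 groups for each gene, with bars of ± SE from limma; filled circles were called, open circles were tested and not called, crosses mark PdeUFGT3 where it was below the filter, and dotted lines mark the minimum of 1. In both comparisons of purple with green leaves, all values are above 0, and PdeUFGT9 is the lowest tested gene in F_P vs. F_G (0.92) and the highest in P vs. G (1.66).

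Between the purple leaves of the cultivars, the ratio of means was largest among the 4 genes for *PdeUFGT3*, which was 21.8 times as high in F_P as in P. It passed the filter only through the 3 libraries of F_P, where it is high, so its call there (2.99 on the log2 scale, SE 0.15, adjusted p = 3.0e-06, limma) is no independent support, and it could not be tested without any of these libraries. Without the filter, the adjusted p was 2.3e-05. *PdeUFGT4* was 2.25 times as high and rose by 1.15 (SE 0.06, adjusted p = 3.7e-06). *PdeUFGT5* and *PdeUFGT9* had smaller log2 differences of 0.51 (SE 0.05, adjusted p = 8.0e-05) and 0.37 (SE 0.05, adjusted p = 4.3e-04), below the minimum fold change. Of all 24752 genes tested in F_P vs. P, 5.05% were called higher in F_P; the calls were 1250 higher and 1369 lower, and 1019 and 1670 with equal fragment totals. By the adjusted p alone, 52.9% were called in either direction, and all 4 *UFGT* genes were among them.

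The green leaves of ZSY held more transcript of the 4 genes than the green leaves of L2025. *PdeUFGT4* rose by 1.39 (SE 0.17, adjusted p = 3.1e-04, limma) and *PdeUFGT9* by 1.11 (SE 0.09, adjusted p = 5.2e-05), whereas *PdeUFGT5*, with 0.76 (SE 0.11, adjusted p = 8.8e-04), was below the minimum fold change. *PdeUFGT3* was below the filter; its 102 fragments in F_G and 6 in G correspond to a ratio of 15.8 (exact 95% interval 7.03 to 44.1, counting error only), and without the filter it was called, with a log2 difference of 1.03 (adjusted p = 0.015). In F_G vs. G, 9.35% of the 26789 genes tested were called higher in F_G. The groups of this comparison and of F_P vs. P are also those of the comparisons of leaf color, so these values are not independent of them.

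P and F_G are neighbors in the order of levels, and limma called none of the 4 genes between them, of which 3 were tested, against 12.6% of 25813 genes in either direction. At an unadjusted p under 0.05 there were 2 of the 3, beside 53.7% of all genes, and by the adjusted p alone likewise 2, beside 46.4%. Voom on the recovered fragments also called 0. *PdeUFGT5* and *PdeUFGT9* had log2 differences of 0.79 (SE 0.08, adjusted p = 1.3e-04) and 0.56 (SE 0.08, adjusted p = 7.2e-04), so that the purple leaves of QHP were above the green leaves of ZSY by less than the minimum fold change. The difference of *PdeUFGT4*, 0.13 (SE 0.09, adjusted p = 0.27, limma), was not beyond the spread between replicates; it was 0.08 without F_G replicate 1, 0.07 without P replicate 2, and 0.20 without F_G replicate 3. *PdeUFGT3* was 2.57 times as high in F_G as in P by the means, with overlapping libraries.

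Whether the color difference itself differed between ZSY and the pair of QHP and L2025 was tested in 1 limma fit of all 12 libraries, in which 20.2% of 28339 genes were called in either direction (2828 higher and 2900 lower, and 2093 and 3953 with equal fragment totals). By the adjusted p alone, 45.4% were called. For *PdeUFGT9*, the log2 difference was 0.74 smaller in ZSY than in P vs. G (contrast −0.74, SE 0.11, adjusted p = 1.4e-04), below the minimum of 1. For *PdeUFGT4* and *PdeUFGT5*, the contrasts were −0.24 (SE 0.19, adjusted p = 0.33) and −0.24 (SE 0.13, adjusted p = 0.14), which do not show a difference at this spread; with equal fragment totals they were −0.48 (adjusted p = 0.044) and −0.49 (adjusted p = 0.0051), still below the minimum of 1. Without G replicate 3 they were −0.05 (adjusted p = 0.74) and −0.13 (adjusted p = 0.27). For *PdeUFGT3*, the contrast was 1.96 (SE 0.31, adjusted p = 3.0e-04) and was called. The gene passed the filter only through libraries of ZSY, where it is high, so this call is no independent support. Without the filter, the adjusted p was 6.8e-04 (limma). The contrast of *PdeUFGT3* also depended on the pseudocount: it was 1.38 (adjusted p = 0.13) with 0.1 in place of 1, and 0.49 (adjusted p = 0.75) by voom on the fragments. The ratios of its fragments, 8.46 in ZSY (exact 95% interval 6.88 to 10.5) and 6.11 in P vs. G (2.59 to 17.5), overlap.

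Summed over the 4 genes, FPKM followed the order of *PdeUFGT5* and *PdeUFGT9*. The sum in ZSY was 175, 188, and 200 in green (F_G) and 421, 427, and 424 in purple leaves (F_P). It was 100, 98.6, and 79.9 in L2025 (G) and 276, 299, and 280 in QHP (P). The groups did not overlap, and the means were 424 ± 2.87 (SD, n = 3) in F_P, 285 ± 12.4 in P, 188 ± 12.3 in F_G, and 92.9 ± 11.3 in G, a ratio of 2.26 for F_P over F_G and of 3.06 for P over G. *PdeUFGT5* contributed 47.3% of the increase in ZSY and 45.1% of that in P vs. G. *PdeUFGT9* contributed 32.1% and 44.6%, *PdeUFGT4* 16.5% and 10.1%, and *PdeUFGT3* 4.07% and 0.217%. The neighbors on chromosome 7 thus carried most of the sum in every library, with *PdeUFGT5* at 38.4% to 49.4% and *PdeUFGT9* at 37.0% to 46.2% of it. The share of *PdeUFGT3* was highest in F_P, at 2.23% to 2.84%, and at most 0.934% elsewhere.

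The remaining 7 *UFGT* genes of the study's list did not share this pattern. Their summed FPKM was 48.4 to 57.1 in F_G and 23.0 to 29.8 in F_P, and 80.3 to 93.0 in G and 25.2 to 29.6 in P, so that it was lower in the purple leaves of both comparisons without overlap. The 4 genes therefore held 78.2% ± 0.325 (SD, n = 3) of the FPKM over all 11 listed copies in green and 94.2% ± 0.700 in purple leaves of ZSY, 51.4% ± 1.56 in L2025, and 91.2% ± 0.663 in QHP. The 4 genes were chosen with earlier results of these data known. Their separation from the other 7, and these shares, are therefore not independent evidence. In F_P vs. F_G, 3 of the 5 tested among the 7 were called lower and 1 higher, with a median log2 difference of −1.08. Of all genes tested there, 12.5% were called lower and 5.68% higher. The median is the value of *PdeUFGT8*, which passed the filter only through the F_G libraries, where it is high. Its call there is thus no independent support. In P vs. G, 5 of the 6 tested were called lower, with a median of −1.33, beside 16.2% of all genes called lower and 9.85% higher. Among these 5 was a gene that passed the filter only through the G libraries. The gene called higher in ZSY, singled out after its values were seen, was *PdeUFGT11* on chromosome 7, which rose by 1.15 in F_P vs. F_G (SE 0.35, adjusted p = 0.023, limma) and had a difference of 0.31 in P vs. G (adjusted p = 0.46). Leaving out F_G replicate 1, F_G replicate 2, or F_P replicate 3 reduced the 4 calls in ZSY to 2, and leaving out G replicate 1 or scaling to equal fragment totals reduced the 5 calls in P vs. G to 3. *PdeUFGT6*, *PdeUFGT8*, and *PdeUFGT10*, 3 copies on chromosome 9, fell in both comparisons: the log2 differences were −2.02 and −2.34 for *PdeUFGT6*, −1.08 and −1.50 for *PdeUFGT8*, and −1.96 and −1.15 for *PdeUFGT10*.

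**Figure D4:**
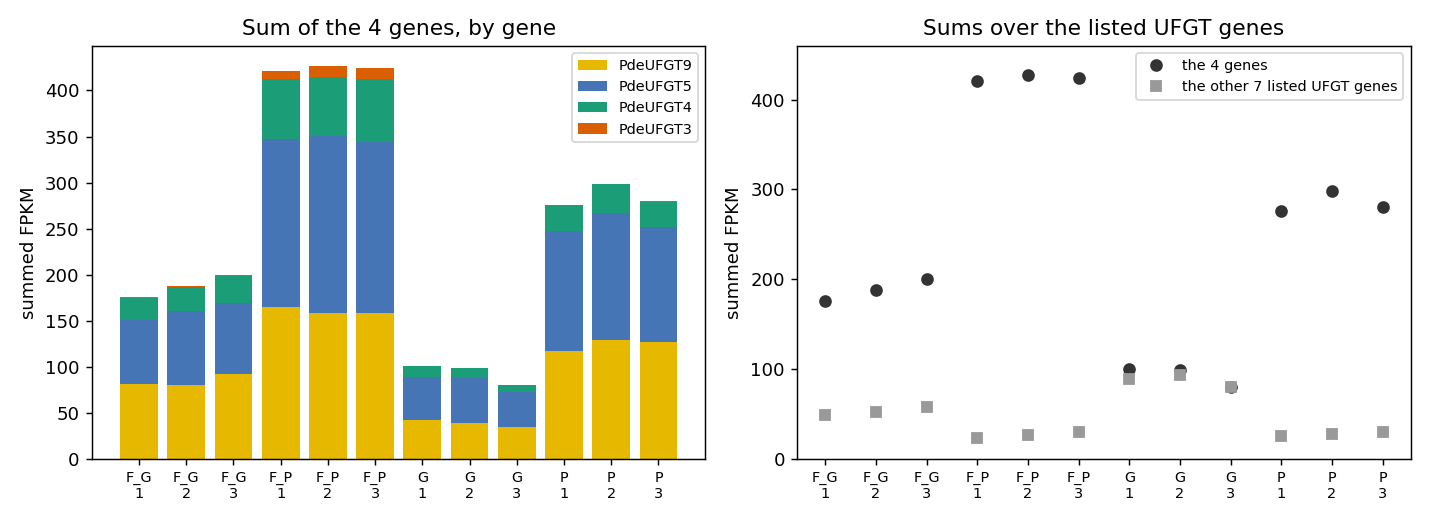
Left, summed FPKM of the 4 genes in each library, stacked by gene; right, the sum of the 4 genes (circles) beside that of the other 7 listed UFGT genes (squares). The sum of the 4 genes is 421 to 427 in F_P and 79.9 to 100 in G, where it is close to that of the other 7.

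Ratios between copies within a library do not depend on the scaling of the libraries and were compared by exact two-sided permutation (400 arrangements, smallest p 0.005), with adjustment over 6 tests. *PdeUFGT3* was left out of the ratios because it was near 0. The ratio of *PdeUFGT4* to *PdeUFGT5* was 0.318 to 0.380 in the 6 ZSY libraries of either color and 0.188 to 0.242 in the 6 libraries of QHP and L2025. The cultivar sets did not overlap, with a log2 difference of 0.68 (exact permutation p = 0.005, adjusted p = 0.015, the smallest that the test allows before adjustment). By color, this ratio differed by 0.02 (exact permutation p = 0.755), so *PdeUFGT4* and *PdeUFGT5* kept nearly the same proportion in purple and green leaves of a pair.

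The ratio of *PdeUFGT4* to *PdeUFGT9* was 0.306 to 0.323 in green and 0.391 to 0.433 in purple leaves of ZSY, 0.204 to 0.272 in L2025, and 0.219 to 0.244 in QHP. It was higher in ZSY by 0.58 on the log2 scale (exact permutation p = 0.005, adjusted p = 0.015), and the mean difference by color over both pairs was 0.15 (exact permutation p = 0.19, adjusted p = 0.35), or 0.08 without G replicate 3. This mean joins opposite directions, 0.38 in ZSY, where the colors did not overlap, and −0.08 in P vs. G. The ratio of the neighbors *PdeUFGT5* and *PdeUFGT9* was 0.834 to 1.02 in green and 1.11 to 1.22 in purple leaves of ZSY, 1.09 to 1.24 in L2025, and 0.984 to 1.11 in QHP. Over both pairs it differed by 0.13 by color (exact permutation p = 0.235, adjusted p = 0.35) and by −0.10 by cultivar set (p = 0.335, adjusted p = 0.40, exact permutation). Within the pairs the directions were again opposite, 0.38 in ZSY and −0.12 in P vs. G. The difference between the pairs was tested for all 3 ratios after these values were seen. It was 0.51 for *PdeUFGT5* over *PdeUFGT9* (exact permutation p = 0.01, adjusted p = 0.03), 0.45 for *PdeUFGT4* over *PdeUFGT9* (exact permutation p = 0.03, adjusted p = 0.045), and −0.05 for *PdeUFGT4* over *PdeUFGT5* (exact permutation p = 0.705). In ZSY, purple leaves thus had relatively less *PdeUFGT9*, and the green leaves of ZSY were the only group whose mean ratio was below 1.

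**Figure D5:**
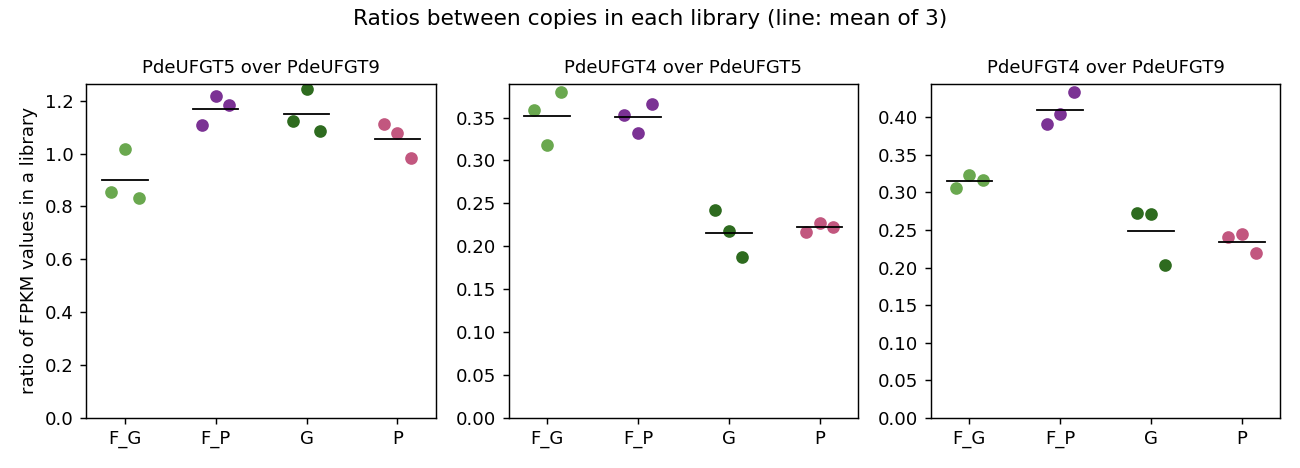
Ratio of the FPKM of 2 copies in each library (linear axis from 0), by group; points are replicates and lines the mean of 3. PdeUFGT4 over PdeUFGT5 separates ZSY (0.318 to 0.380) from QHP and L2025 (0.188 to 0.242) whatever the color, and PdeUFGT5 over PdeUFGT9 is lowest in F_G.

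Likeness of pattern was measured as Pearson's r of log2(FPKM + 1) over the 12 libraries, which fall into 4 groups, so the values are descriptions of the group means more than of single libraries. Among the listed structural genes and both subgroup 5 MYB genes, 35 of which could be compared, *PdeUFGT4* and *PdeUFGT5* were most like *PdeMYB1* (r = 0.976 and 0.979), an R2R3-MYB of the subgroup that holds regulators of flavonoid genes in other plants. *PdeUFGT4* was next most like *PdeUFGT9* (0.957) and *PdeUFGT5* (0.947), and *PdeUFGT5* like its neighbors *PdeFLS3* (0.979) and *PdeUFGT9* (0.975). *PdeUFGT9* was most like *PdeUFGT5* (0.975), *PdeMYB1* (0.958), and *PdeUFGT4* (0.957). *PdeUFGT3* was most like *PdeFLS4* (0.892), *PdeUFGT11* (0.889), and *PdeUFGT4* (0.868).

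Such values were common. Among 28338 genes, *PdeMYB1* ranked 89 in likeness to *PdeUFGT4* and 67 to *PdeUFGT5*, *PdeUFGT5* ranked 173 for *PdeUFGT9*, and *PdeFLS4* ranked 736 for *PdeUFGT3*. An r of at least 0.9 was found for 1463 genes with *PdeUFGT4*, 1584 with *PdeUFGT5*, 1735 with *PdeUFGT9*, and 640 with *PdeUFGT3*. After subtracting the group means, the deviations of single libraries had an r of 0.83 between *PdeUFGT4* and *PdeUFGT5*, 0.82 between *PdeUFGT4* and *PdeUFGT9*, and 0.51 between the neighbors *PdeUFGT5* and *PdeUFGT9*, over libraries that share their depth and scaling. G replicate 3 was the lowest library for these 3 genes.

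Other genes of the pathway and of the surrounding chromosome moved in both directions. Of the 26 listed structural genes that are not *UFGT*, 8 of 23 tested were called higher in F_P vs. F_G and 7 lower, and 10 of 23 higher in P vs. G and 8 lower, with median log2 differences of 0.57 and 0.15. Called higher in both were 3 of 6 *CHS* (chalcone synthase, the first step of the pathway), 2 of 4 *FLS*, 1 of 3 *F3'H* (flavonoid 3'-hydroxylase), and 1 of 6 *ANS*. Called lower in both were 1 of 4 *F3H* (flavanone 3-hydroxylase), 1 of 3 *F3'H*, 1 of 2 *F3'5'H* (flavonoid 3',5'-hydroxylase), and 1 of 6 *ANS*, and the single *DFR* (dihydroflavonol reductase) was just below the minimum fold change in both, with log2 differences of 0.91 (adjusted p = 1.7e-04) and 0.92 (adjusted p = 2.2e-04, limma). Of the genes called lower in both, those of *F3H*, *F3'5'H*, and *ANS* passed the filter only through the green libraries, where they are high. Their mean FPKM was at most 0.671 in either group of purple leaves. The same held in P vs. G for the 1 *CHS* called lower. These calls, which are part of the counts of lower genes, are thus no independent support. The *F3'H* called lower had means of 5.11 in F_P and 8.32 in P. Among the 20 nearest annotated genes around *PdeUFGT3*, 3 of 10 tested were called in F_P vs. F_G, all of them lower, and 2 of 11 higher and 2 lower in P vs. G. Around *PdeUFGT4*, 2 of 13 were called higher and 1 lower in F_P vs. F_G, and 2 of 14 higher and 1 lower in P vs. G. Around the pair on chromosome 7, the 20 nearest genes other than the pair itself included 4 of 14 called higher and 1 lower in F_P vs. F_G, and 5 of 16 called higher and 2 lower in P vs. G. By the order of their identifiers, *PdeFLS3* and *PdeFLS4* are among these neighbors. Both were called higher in both comparisons, are counted above among *FLS*, and were listed by the study from its own tests of these libraries. *PdeFLS3* passed the filter in each comparison only through the purple libraries, where it is high. Its mean FPKM was 2.81 in F_P and 0.504 in F_G, and 1.65 in P and 0.0448 in G. The calls of *PdeFLS3* are thus no independent support. The counts of neighbors and listed genes can be read beside the shares of all genes called higher, 5.68% and 9.85%, and lower, 12.5% and 16.2%, but they are small, and no test of them was made.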

How the data were processed

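RNA-seq was performed on 12 libraries (4 groups of 3, grouped by the sample labels). The authors purified mRNA, mapped reads to a genome of *P. deltoides* by Hisat2, assembled transcripts by StringTie, and deposited FPKM values per gene. Tool versions were not given in the sources used, and the library kit does not mark strand. The other numbers used, exon and gene positions, came from the deposited annotation. By the median of ratios over 26651 genes, all 12 libraries had the same factor (1.01), so the deposited values already carried that scaling. Whole fragments (up to 1000 checked) were recovered from FPKM and exon length; intervals are exact binomial ones at 95% and cover counting error only, with a floor of 3 fragments.

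Of the 2 tests provided for, the one for FPKM was used: limma 3.58.1 (trend, R 4.3.3) on log2(FPKM + 1), with the thresholds of the study's methods. It was run on simulated data, whose changes were larger than the color differences of *PdeUFGT4*, *PdeUFGT5*, and *PdeUFGT9*. No change was simulated in genes as low as *PdeUFGT3*. The simulation therefore does not bear on calls near the minimum fold change or at low levels. The self-made tables used Python 3.11.15, pandas 2.3.3, numpy 2.4.6, scipy 1.17.1, and matplotlib 3.10.9. The members and lists were chosen with earlier results of these data known. The genes named are the 4 members, the other *UFGT* genes called in both color comparisons, and, for each member, the 3 most similar listed genes; families and the 10 nearest genes on each side are given as counts. Gene names come from the study's supplementary list, since 0 identifiers matched the 31722 genes of the reference table (ASM1585260v2); 1317 genes have no position. The replicates are described as independent, but not by tree, so p-values measure the spread between these samples. Alternatives were another pseudocount, other scalings, no filter, a joint fit, a replicate block, voom on fragments, no minimum fold change, and each library left out.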

Additional observations from a re-analysis of the deposited data

Results flagged for a closer look

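For 2 of the 4 genes, the difference between purple and green leaves was itself different in ZSY and in the pair of QHP and L2025 at an adjusted p of at most 0.05 (limma, 1 fit of 12 libraries), as it was for 45.4% of all genes tested. The contrast of *PdeUFGT3* was 1.96 (adjusted p = 3.0e-04), with a larger difference in ZSY, and it was no longer called with a pseudocount of 0.1 or on recovered fragments, with an adjusted p of 1.6e-04 to 0.75 over the alternatives. This gene passed the filter only through libraries of ZSY, where it is high, so its call is no independent support. The contrast of *PdeUFGT9* was −0.74 (adjusted p = 1.4e-04), with a smaller difference in ZSY, and its adjusted p ranged from 6.4e-06 to 8.1e-04 over the alternatives.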

How the results depend on the processing

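Of 294 recomputed fold changes and contrasts of the 4 genes, 291 kept their direction and stayed called or not called, a count that overstates the agreement. The exceptions were the contrast of *PdeUFGT3* between the color comparisons, at 1.38 with a pseudocount of 0.1 (adjusted p = 0.13), 0.49 by voom (adjusted p = 0.75), and 0.50 by voom without the filter (adjusted p = 0.72, chosen after the data were seen); the gene had 6 fragments over the 3 libraries of G. The number of the 4 genes called for this contrast was accordingly 0 with a pseudocount of 0.1 and 0 by voom. Among the settings counted, no filter, the joint fit, and the replicate block leave the log2 difference unchanged and can move only its adjusted p. With equal fragment totals, the contrasts of *PdeUFGT4* and *PdeUFGT5* passed the adjusted p threshold (limma, 0.33 to 0.044 and 0.14 to 0.0051). They counted as kept because they stayed below the minimum fold change. Without a minimum fold change, 4 genes were called in F_P vs. P (52.9% of all genes), 2 in P vs. F_G (46.4%), and 2 for the contrast (45.4%). Leaving out 1 library gave 1 to 2 genes called in F_P vs. P, with 1 when any F_P library was left out, because *PdeUFGT3* then no longer passed the filter. These losses of the *PdeUFGT3* call are not among the 294. Scaling to equal fragment totals changed the log2 ratio of the summed FPKM from 1.62 to 1.81 in P vs. G and from 0.57 to 0.46 in F_P vs. P. It also moved the median of all genes from −0.02 to 0.15 in P vs. G, from 0.00 to −0.11 in F_P vs. P, and from 0.03 to −0.18 for the contrast. The contrasts of *PdeUFGT4*, *PdeUFGT5*, and *PdeUFGT9* were then −0.48, −0.49, and −0.99. The difference by color of the log2 ratio of *PdeUFGT4* to *PdeUFGT5* was −0.027 to 0.065 with 1 library left out, changing sign without F_G replicate 2 or G replicate 3. The median of ratios changed no call of the 4 genes. For the contrasts and the sums it could change nothing, since all 12 libraries had the same factor. *PdeUFGT3* in P vs. G and F_G vs. G cannot be placed firmly at 0 to 48 fragments per library.

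Same-numbered replicates did not deviate together (r from −0.24 to 0.09), so the numbers do not pair the samples. With the replicate number as a block, 4720 genes (4685 without it) were called in F_P vs. F_G, 6948 (6931) in P vs. G, and no call of the 4 genes changed.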
